A study of Mus musculus with 10 samples.

Results

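The Cyp4 fatty acid omega-hydroxylases are membrane-bound cytochrome P450 enzymes of the endoplasmic reticulum. They are represented here by 7 mouse genes, Cyp4a10, Cyp4a12, Cyp4a14, Cyp4f13, Cyp4f14, Cyp4f15 and Cyp4v3, chosen by the gene name that the array files give each probe. These genes had 10 probes among 41174 non-control probes, and the whole array carried 27656 gene names. All 10 probes passed the filter on dim signal, with signal well above background on all 10 arrays. A further 8 Cyp4 genes had 10 probes, of which 6 passed.

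Liver total RNA was profiled on Agilent 1-colour arrays from 1-year-old C57BL/6 mice that were knocked out for the nuclear orphan receptor TAK1 (TR4, gene Nr2c2), and from wild-type mice of the same strain and age. The comparison asks which hepatic transcripts change when the receptor is lost. There were 5 TAK1 knockout (KO) and 5 wild-type (WT) arrays. How the knockout allele was made, the sex of the animals and their feeding state are not stated in the labels. Since the labels do not state whether every array comes from its own animal, p-values here refer to array-to-array spread.

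Omega-hydroxylases put a hydroxyl group on the far end of a fatty acid, which cytosolic and microsomal dehydrogenases then oxidise to a dicarboxylic acid for shortening in peroxisomes. In liver this path is a minor outlet for fatty acids that gains weight in fasting and in lipid overload. The Cyp4a genes lie side by side in a cluster and are classical targets of the fatty acid receptor PPARA, whereas Cyp4f enzymes also take leukotrienes, prostaglandins and, in humans, vitamin E or K as substrates.

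The sequences of 4 Cyp4a probes carry the comparison of Cyp4a10 with its neighbours, because the array reads closely related genes through short stretches of each. Each is shown as the files give it, with the longest run of letters that it shares with any other of the 20 Cyp4 probes in capitals. Of the 2 Cyp4a10 probes the first lies at chr4:114901279-114901760 and the second at chr4:114901988-114902047. The Cyp4a12 probe lies at chr4:114704243-114705175 and the probe of Cyp4a31, a further cluster member, at chr4:114946658-114946717. All positions are on mouse build mm7, are listed in ascending order on the forward strand, and were not placed in exons or untranslated regions here.
Cyp4a10 A_52_P6588: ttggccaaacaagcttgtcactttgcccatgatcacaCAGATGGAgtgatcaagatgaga
Cyp4a10 A_52_P340136: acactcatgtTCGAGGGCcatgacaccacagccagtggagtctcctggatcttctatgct
Cyp4a12 A_51_P433360: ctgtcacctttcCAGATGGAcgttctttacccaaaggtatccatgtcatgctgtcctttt
Cyp4a31 A_52_P218449: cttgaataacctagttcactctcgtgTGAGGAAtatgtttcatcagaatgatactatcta
The shared runs were 8 bases long for the first 3 probes and 7 for the probe of Cyp4a31. The probes were compared with each other and not with the transcripts of the neighbouring genes, so the part of cross-hybridisation in the values below was not tested.

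Signals below are log2 values relative to the 75th percentile of the same array, and differences are KO minus WT on that scale with the standard error of the limma fit. A probe is called when its adjusted p is under 0.05 over the 23266 probes that passed the filter. In that fit 2.98% of probes were called lower and 2.06% were called higher. By the probe with the highest mean of each gene, the shares were 3.26% and 2.23% of 15806 genes. Of the called probes 59.1% were lower with this scaling, against 78.9% when arrays were scaled to their median and 32.6% without scaling. The KO2 array stood apart from the other KO arrays on both leading principal components, and its median correlation with arrays of its group was 0.973, the lowest of the 10. WT1 to WT4 shared slide 1, KO1 to KO3 and WT5 shared slide 2, and KO5 and KO4 lay on slides 3 and 4, so that slide 2 alone holds both groups. The slide of KO4 had a later scan day than the rest. The labels were checked at the Nr2c2 locus on chromosome 6. A cDNA probe inside it, at 92237812 to 92237871 and listed in the opposite direction to both probes named Nr2c2, was above background on 0 of 5 KO and 5 of 5 WT arrays and at least 5.41-fold lower in KO. It passed the filter through the WT arrays alone and its KO values are undetected, so no p-value is given for it. Both probes named Nr2c2 were detected on all arrays and were higher in KO, with differences of 0.44 ± 0.11 (limma adjusted p = 0.043) and 0.36 ± 0.13 (limma adjusted p = 0.14). The call of the first was lost without any 1 of KO1, KO3, KO4, KO5, WT1, WT2, WT3 and WT5 (adjusted p up to 0.11). A further cDNA probe inside the locus, at 92227438 to 92227497, was above background on 0 KO and 0 WT arrays. The sources do not give the position of the deletion relative to these probes.

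Cyp4a10 was the member gene called lower in KO liver, and 3 of the 3 probes that carry its name in the files were called. Over the whole set, 3 of 10 member probes were called lower, beside 2.98% of all probes, and 0 were called higher. At an unadjusted p under 0.05 the counts were 5 lower and 0 higher of 10 member probes, beside 11.8% and 11.1% of all probes. The 3 calls carry 1 gene name and are not independent. One of these probes, A_52_P340136, varied with the Cyp4a12 probes rather than with the other Cyp4a10 probes (below), and its target was not tested. Cyp4a14 had the widest difference of the 10 probes, but also the widest spread among KO arrays, and was not called. Cyp4a12, the Cyp4f genes and Cyp4v3 were not called in either direction.

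Cyp4a10 encodes a fatty acid omega-hydroxylase that is strongly induced in mouse liver by fasting and by PPARA agonists. Probe A_52_P6588 had relative log2 signals of 0.18, 0.05, 0.41, -1.17 and -1.42 on KO1 to KO5, against 1.14, 1.44, 1.22, 1.03 and 1.40 on WT1 to WT5. The KO arrays all lay below the WT arrays, and KO4 and KO5 were lower than the other 3. KO averaged -0.39 ± 0.84 and WT 1.25 ± 0.17 (SD, n = 5 each), a difference of -1.64 ± 0.34 or 3.12-fold lower in KO (limma adjusted p = 0.028, exact permutation p = 0.0079, the smallest that 5 against 5 arrays can give). In bulk tissue, fewer cells of a type and less RNA per cell cannot be told apart.

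The second Cyp4a10 probe, A_52_P257774, has a higher position, at chr4:114909102-114909590. Its signals were 2.97, 3.09, 3.41, 1.95 and 1.43 in KO, against 3.97, 4.21, 4.34, 3.95 and 4.38 in WT. The order of the KO arrays was nearly that of the first probe, with KO4 and KO5 again lowest and no overlap between groups. The difference was -1.60 ± 0.35, or 3.03-fold lower in KO (limma adjusted p = 0.030, exact permutation p = 0.0079, n = 5 each).

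The third Cyp4a10 probe, A_52_P340136, showed a smaller difference. Its signals were 3.58, 4.03, 3.85, 3.62 and 3.63 in KO, against 3.90, 4.43, 4.59, 4.27 and 4.38 in WT. Groups overlapped, since KO2 exceeded WT1, while the other 4 KO arrays lay below every WT array. The difference was -0.57 ± 0.14, or 1.48-fold lower in KO (limma adjusted p = 0.045, exact permutation p = 0.016, n = 5 each). KO4 and KO5, which were far below the other KO arrays on the first 2 probes, did not stand apart on this one.

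All 3 calls of Cyp4a10 were lost when certain single arrays were left out and when slide was a fixed block. Leaving out KO4 or any 1 WT array ended the calls of the first 2 probes, whose adjusted p then reached 0.077 and 0.08 at most, and the third probe lost its call without any 1 of KO1, KO3, KO4, KO5 and WT2 to WT5 (adjusted p up to 0.12). Within slide 2, where KO1 to KO3 face WT5 alone, the differences were -1.20, -1.23 and -0.56, in the order of the probes above. With slide as a fixed block they had the same size and limma adjusted p-values of 0.12, 0.14 and 0.60. The part of the slides in the lower values of KO4 and KO5, each alone on its slide, cannot be told apart from that of the samples.

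**Figure D1:**
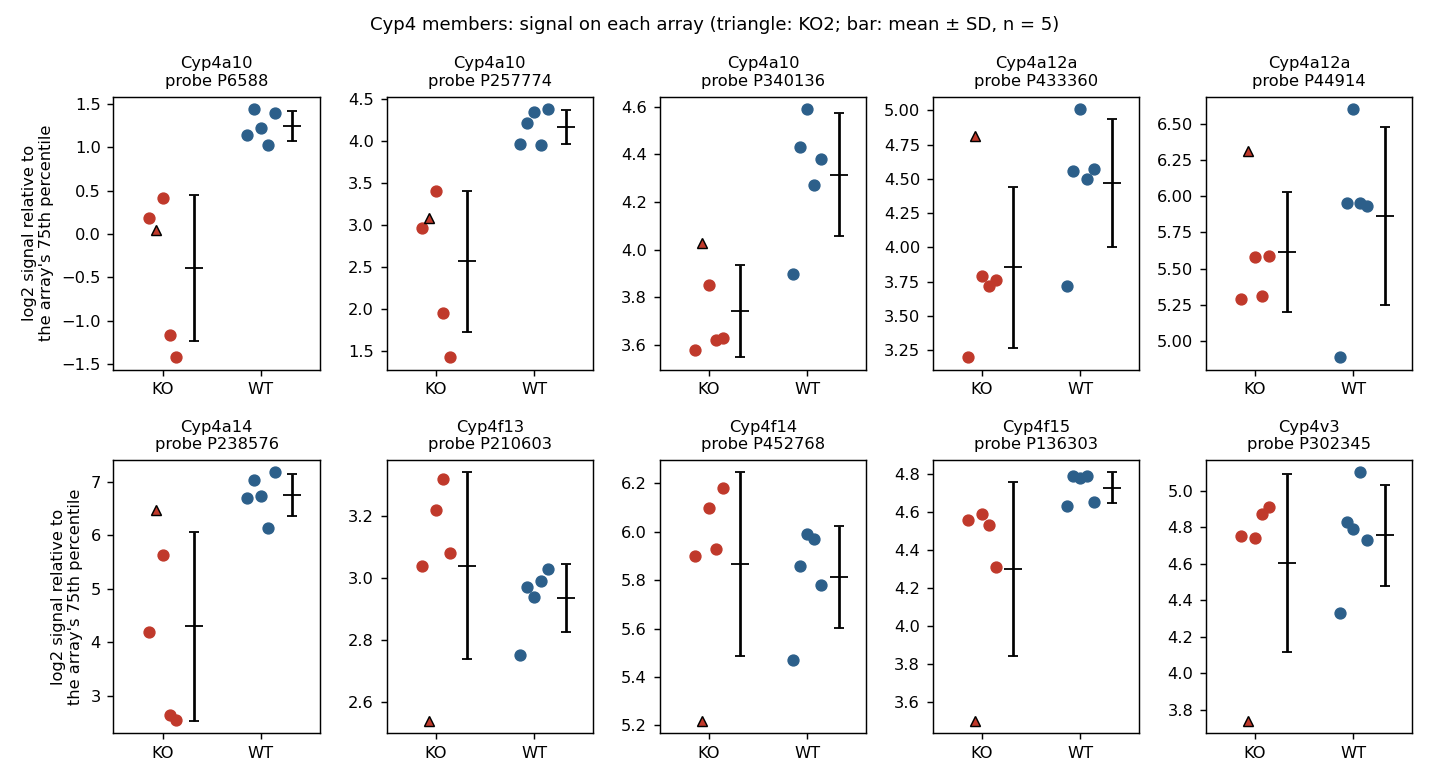
Relative log2 signal (log2 of processed signal minus the array's 75th percentile) of the 10 member probes on each KO (left) and WT (right) array, with mean ± SD (n = 5) and KO2 as a triangle. All KO arrays lie below all WT arrays for the Cyp4a10 probes P6588 and P257774 and for Cyp4f15, and KO2 is the lowest point for Cyp4f13, Cyp4f14, Cyp4f15 and Cyp4v3.

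Cyp4a14 encodes a lauric acid omega-hydroxylase and is among the most inducible PPARA targets of mouse liver. Its probe, A_51_P238576 at chr4:114862748-114862807, had signals of 4.20, 6.48, 5.64, 2.64 and 2.54 in KO, against 6.71, 7.03, 6.73, 6.14 and 7.18 in WT. KO2 exceeded WT4, the other 4 KO arrays lay below every WT array, and KO4 and KO5 were lowest. The KO mean of 4.30 ± 1.76 and the WT mean of 6.76 ± 0.40 (SD, n = 5 each) differed by -2.46 ± 0.72, with a 95% interval of -4.04 to -0.87. The fit gave an unadjusted p of 0.0062 and an adjusted p of 0.079 (exact permutation p = 0.016), so the gene was not called. Without KO2 the difference was -3.0 and was called (limma adjusted p = 0.024), and within slide 2 it was -1.74.

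Cyp4a12 encodes the main arachidonic acid omega-hydroxylase of mouse kidney and is higher in males than in females there. The probes named Cyp4a12 in the files carry the current name Cyp4a12a, and its near-identical copy Cyp4a12b may share their signal, so these values are uncertain as to gene. Probe A_51_P433360 had signals of 3.20, 4.81, 3.79, 3.72 and 3.76 in KO, against 3.72, 4.56, 5.01, 4.50 and 4.57 in WT. KO2 was above 4 of the WT arrays, WT1 was as low as the KO arrays, and the groups overlapped. The difference was -0.62 ± 0.30, with a 95% interval of -1.28 to 0.05 (limma adjusted p = 0.25, exact permutation p = 0.13).

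The other Cyp4a12 probe, A_52_P44914 at chr4:114709177-114709236, had signals of 5.29, 6.31, 5.58, 5.31 and 5.59 in KO, against 4.89, 5.95, 6.60, 5.95 and 5.93 in WT. WT1 was the lowest of the 10 arrays and KO2 the highest but WT3. The difference of -0.25 ± 0.30 had an interval of -0.91 to 0.41 (limma adjusted p = 0.66, exact permutation p = 0.53). Neither probe of this gene showed the low KO4 and KO5 values of Cyp4a10 and Cyp4a14.

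The 3 Cyp4f members lie on chromosome 17. Cyp4f13, for a fatty acid hydroxylase of the leukotriene-metabolising subfamily, was read by probe A_51_P210603 at chr17:31127900-31128047. Its signals were 3.04, 2.54, 3.22, 3.32 and 3.08 in KO, against 2.75, 2.97, 2.94, 2.99 and 3.03 in WT. KO2 lay below all WT arrays and the other 4 KO arrays lay above them. The difference was 0.10 ± 0.14, with an interval of -0.20 to 0.41 (limma adjusted p = 0.69). Its direction was -0.09 within slide 2, and without KO2 the difference was 0.23.

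Cyp4f14, which in mouse liver hydroxylates leukotriene B4 and vitamin E, was read by probe A_51_P452768 at chr17:31107040-31107099. Its signals were 5.90, 5.22, 6.10, 5.93 and 6.18 in KO, against 5.47, 5.86, 5.99, 5.97 and 5.78 in WT. KO2 was the lowest array, and the other KO arrays overlapped with WT. The difference of 0.06 ± 0.18 had an interval of -0.34 to 0.45 (limma adjusted p = 0.88) and was -0.05 when arrays were scaled to their median.

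Cyp4f15, a further member of the Cyp4f cluster, was read by probe A_51_P136303 at chr17:30905692-30905751. Its signals were 4.56, 3.50, 4.59, 4.53 and 4.31 in KO, against 4.63, 4.79, 4.78, 4.79 and 4.65 in WT. All KO arrays lay below all WT arrays, KO2 by more than 1 on the log2 scale and the others by less. Of the 10 member probes 3 showed such separation, beside 5.09% of all probes. The KO mean of 4.30 ± 0.46 and the WT mean of 4.73 ± 0.08 (SD, n = 5 each) differed by -0.43 ± 0.19, and the gene was not called (limma adjusted p = 0.21, exact permutation p = 0.0079). The difference without KO2 was -0.23.

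Cyp4v3, the mouse counterpart of human CYP4V2, whose loss causes a crystalline dystrophy of the retina, was read by probe A_52_P302345 at chr8:44091596-44091655. Its signals were 4.75, 3.74, 4.74, 4.87 and 4.91 in KO, against 4.33, 4.83, 4.79, 5.10 and 4.73 in WT. KO2 was the lowest array and the other 4 KO arrays fell within the WT range. The difference of -0.15 ± 0.23 had an interval of -0.66 to 0.36 (limma adjusted p = 0.74) and was 0.07 without KO2.

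**Figure D2:**
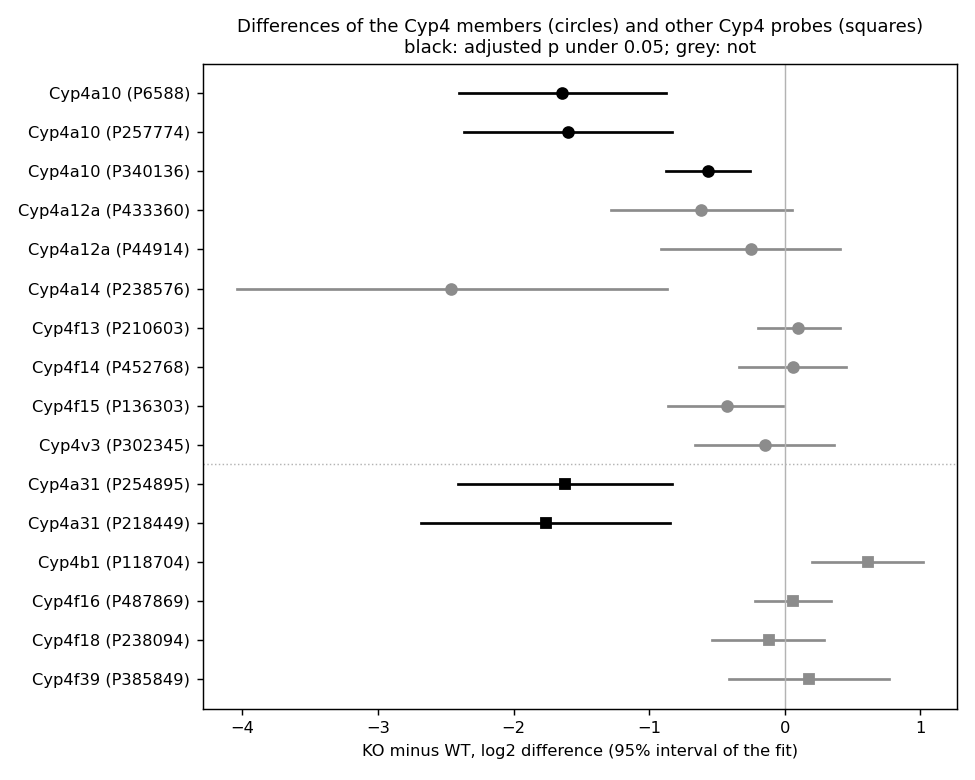
KO minus WT log2 difference with the 95% interval of the limma fit for the 10 member probes (circles) and the 6 tested probes of other Cyp4 genes (squares), black where the adjusted p is under 0.05. The 5 black intervals, of Cyp4a10 and Cyp4a31, lie below 0, and the interval of Cyp4a14 is the widest.

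Within the Cyp4a cluster, the array values followed 2 patterns that cut across the gene names. The first 2 Cyp4a10 probes varied together after each group's mean was taken off (r = 0.97 over 10 arrays), and both went with Cyp4a14 (r = 0.86 and 0.88). The third Cyp4a10 probe had r = 0.36 and 0.47 with the first 2, but r = 0.91 and 0.95 with the Cyp4a12 probes. Leaving out the 2 arrays farthest from the median of the Cyp4a12 probe, the last 2 correlations were 0.85 and 0.88 over 8 arrays. These values describe the arrays, share libraries and slides, and have no test.

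**Figure D3:**
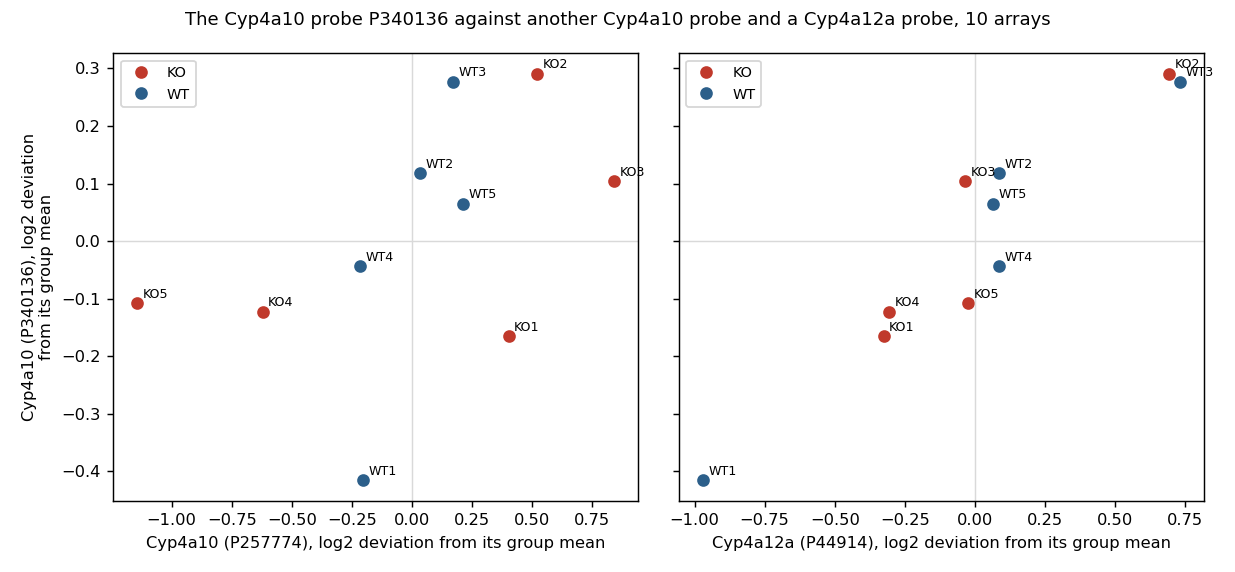
Deviation of the Cyp4a10 probe P340136 from its group mean (vertical axis, log2) against that of the Cyp4a10 probe P257774 (left) and the Cyp4a12a probe P44914 (right) on 5 KO and 5 WT arrays. The points scatter on the left (r = 0.47) and follow a line on the right (r = 0.95), with KO2 and WT3 at the top and WT1 at the bottom.

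Cyp4a31, a further cluster gene that is no member, was lower in KO on both probes. Probe A_51_P254895 had signals of 4.79, 4.74, 5.41, 3.62 and 3.42 in KO, against 5.69, 6.23, 6.16, 5.76 and 6.24 in WT. The groups did not overlap and KO4 and KO5 were lowest, as for Cyp4a10. The difference was -1.62 ± 0.35, or 3.07-fold lower in KO (limma adjusted p = 0.032), and on the other probe, A_52_P218449, it was -1.76 ± 0.41 (limma adjusted p = 0.039). Both calls were lost without KO4, KO5 or any 1 WT array, and with slide as a fixed block (limma adjusted p = 0.29 and 0.12). After the group means were taken off, the Cyp4a31 probes had r between 0.94 and 0.99 with the first 2 Cyp4a10 probes, and the part of shared hybridisation in this was not tested.

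**Figure D4:**
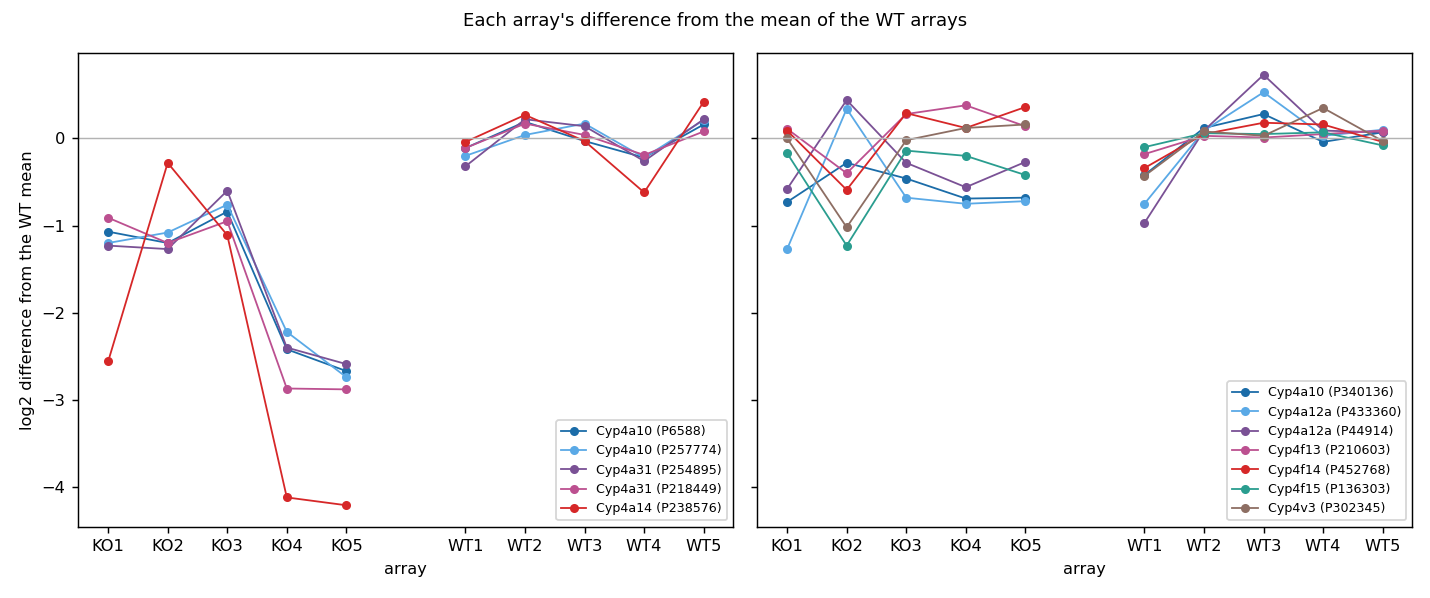
Log2 difference of each KO (left) and WT (right) array from the WT mean, for the Cyp4a10, Cyp4a31 and Cyp4a14 probes that vary together (left panel) and the other member probes (right panel). KO4 and KO5 are lowest in the left panel, at -4.12 and -4.21 for Cyp4a14, and KO2 stands low for Cyp4f13, Cyp4f14, Cyp4f15 and Cyp4v3 in the right panel.

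The remaining Cyp4 genes showed no call. Cyp4b1, which acts on short fatty acids and activates plant toxins in lung, was higher on every KO array than on any WT array, with a difference of 0.61 ± 0.18 that was not called (limma adjusted p = 0.087, exact permutation p = 0.0079). Cyp4f18, a leukotriene B4 hydroxylase of neutrophils, differed by -0.12 ± 0.19, Cyp4f39 by 0.18 ± 0.26, and Cyp4f16 by 0.06 ± 0.12, which was -0.04 when arrays were scaled to their median. Cyp4a29 was above background on 0 arrays, and Cyp4x1, Cyp4f41-ps and a second Cyp4f16 probe on too few for the test.

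On KO2, Cyp4f13, Cyp4f14, Cyp4f15, Cyp4f18 and Cyp4v3 were low together, whereas Cyp4f16 was at its highest of the 10 arrays, 0.37 above the WT mean. Cyp4f14 and Cyp4v3 had r = 0.94 across the 10 arrays with group means taken off, and 0.50 over the 8 arrays left without KO2 and WT1. Cyp4f15 and Cyp4v3 had r = 0.86, and 0.25 over the same 8 arrays. Relative to the WT mean, KO2 was lower by 1.23 for Cyp4f15 and by 1.02 for Cyp4v3, while the other KO arrays were within 0.42 of it for Cyp4f15.

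The genes whose signal most resembled each member were searched among 11886 genes over the 10 arrays, by the probe with the highest mean of each gene, as a description. For Cyp4a10, represented by probe A_52_P340136, the highest r was 0.975 with Marchf8, 0.955 with Phldb1 and 0.931 with Mtmr4. This is the probe that varied with the Cyp4a12 probes rather than with the other Cyp4a10 probes, so this likeness may not be that of Cyp4a10. The other Cyp4a10 probes were not searched. For Cyp4a14 it was 0.973 with Slc18a1, 0.971 with Lsm4 and 0.963 with Colgalt1. For Cyp4f15 it was 0.989 with Cyp3a16, 0.987 with Inmt and 0.986 with Cyp3a44, and without KO2 these were 0.923, 0.934 and 0.90 over 9 arrays. Cyp4v3 ran closest to Acadsb (0.982), and Otc (0.969) was also among its closest; both encode mitochondrial enzymes. Without KO2 the last 2 were 0.931 and 0.875. Cyp4a12a was closest to Derl3 (0.94), Cyp4f13 to Glyat (0.965) and Cyp4f14 to Snap47 (0.959). With group means taken off, the closest were 1110065P20Rik for Cyp4a12a (0.959), 9330159M07Rik for Cyp4a14 (0.959), Cox6c for Cyp4f13 (0.987), Chchd7 for Cyp4f14 (0.966), Srpk2 for Cyp4f15 (0.991) and again Acadsb for Cyp4v3 (0.983).

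The steps around omega-hydroxylation were described by lists of other genes, with 1 probe per gene. The median difference over all genes was 0.011, and 48.1% of genes had a negative one. Beside the counts of each list stand 3.26% of all genes called lower and 2.23% called higher. With slide as a fixed block, 0 genes of any pathway or marker list were called. Of 11 alcohol and aldehyde dehydrogenases 1 fell and 1 rose, and 8 had negative differences (median -0.24). Aldh3a2, the microsomal fatty aldehyde dehydrogenase that follows the omega-hydroxylases, fell by 1.00 ± 0.11 on the log2 scale (2.0-fold lower in KO, limma adjusted p = 0.0013). Adh4, an alcohol dehydrogenase that takes omega-hydroxy fatty acids, rose by 0.61 ± 0.08 (limma adjusted p = 0.0042). Both held in every fit that left out 1 array, and both were lost with slide as a fixed block (limma adjusted p = 0.13 for Aldh3a2 and 0.25 for Adh4).

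Of 15 genes for electron supply to microsomal P450 enzymes and for haem synthesis, 1 fell, 1 rose and 14 had negative differences (median -0.29). Cyb5b, the outer mitochondrial form of cytochrome b5, fell by 0.59 ± 0.12 (limma adjusted p = 0.023) and lost its call without WT2, WT4 or WT5. Cyb5r1 rose by 0.41 ± 0.10 (limma adjusted p = 0.047), a call that was lost without any 1 array but KO2.

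Of 22 genes of peroxisomal oxidation 7 fell and 0 rose, beside 3.26% and 2.23% of all genes, and 21 had negative differences (median -0.36). Pex11a, which drives peroxisome division, fell by 0.98 ± 0.10 (limma adjusted p = 0.0012) and Crat, the carnitine acetyltransferase, fell by 1.04 ± 0.16 (limma adjusted p = 0.0083). Ehhadh, the peroxisomal bifunctional enzyme needed for dicarboxylic acids, fell by 0.92 ± 0.19 (limma adjusted p = 0.028). Ehhadh lost its call without KO4, KO5 or any WT array. The count of genes that fell ran from 2 to 10 when 1 array was left out.

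Of 27 genes made up of Ppara and its textbook liver targets outside the Cyp4 family, 6 fell and 0 rose, beside 3.26% and 2.23% of all genes. Of the 27, 23 had negative differences (median -0.23). Cd36, the fatty acid translocase, fell by 2.20 ± 0.37 (4.6-fold lower in KO, limma adjusted p = 0.012), and Acot2, a mitochondrial acyl-CoA thioesterase, fell by 1.19 ± 0.22 (limma adjusted p = 0.018). Slc25a20, the carnitine-acylcarnitine carrier, fell by 0.46 ± 0.07 (limma adjusted p = 0.0079), and Plin2, a lipid droplet coat protein, fell by 0.68 ± 0.12 (limma adjusted p = 0.016). Acot2 and Plin2 lost their calls without WT2. Ppara itself had a difference of -0.60 ± 0.15 and was not called (limma adjusted p = 0.051, exact permutation p = 0.016), though it was called without KO1 or KO2. Counts of this list ran from 2 to 7 when 1 array was left out, and several list members are regulated by more than PPARA.

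Other enzymes of eicosanoid metabolism, which share substrates with the Cyp4f group, gave 0 genes called lower and 2 called higher of 22 (median 0.29). Differences were negative for 9 and positive for 13. In both directions together, 14 had an unadjusted p under 0.05 by limma, beside 11.8% lower and 11.1% higher of all probes. Cyp2c70, known for making muricholic acids in mice, rose by 1.00 ± 0.17 (limma adjusted p = 0.014) and Cyp2c40, an arachidonic acid hydroxylase, by 0.75 ± 0.15 (limma adjusted p = 0.025), which was lost without KO5, WT4 or WT5. Of 8 other P450 genes with retinoid or fatty acid substrates 0 were called and 1, Cyp1a1, had an unadjusted p under 0.05. Cyp1a1 had a difference of -0.49 ± 0.21 (limma adjusted p = 0.21).

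Because Cyp4a12 and several P450 genes differ between the sexes of mice, lists of sex-biased liver genes were set beside the members. Of 21 male-biased genes 3 rose and 0 fell, beside 2.23% and 3.26% of all genes, and 16 had positive and 5 negative differences (median 0.16). Those that rose were C8b, C8a and Egfr, of which C8b, a terminal complement component, rose by 1.21 ± 0.26 (limma adjusted p = 0.029). Of 17 female-biased genes 4 fell and 0 rose, beside 3.26% and 2.23% of all genes, and 14 had negative and 3 positive differences (median -0.92). Those that fell were Cyp2a4, Hamp2, Hao2 and Abcb1a. Cyp2a4 fell by 0.76 ± 0.11 (limma adjusted p = 0.0061) and Hamp2, a hepcidin gene, fell by 4.12 ± 0.63 (limma adjusted p = 0.0083), while Hao2 and Abcb1a were above background on 1 and 2 KO arrays and on all WT arrays. Of these 7 calls, those of Cyp2a4 and Hamp2 held whichever array was left out, and all 7 were lost with slide as a fixed block (limma adjusted p = 0.27 for Cyp2a4 and 0.35 for Hamp2). The part of animal sex in the member values was not tested.

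**Figure D5:**
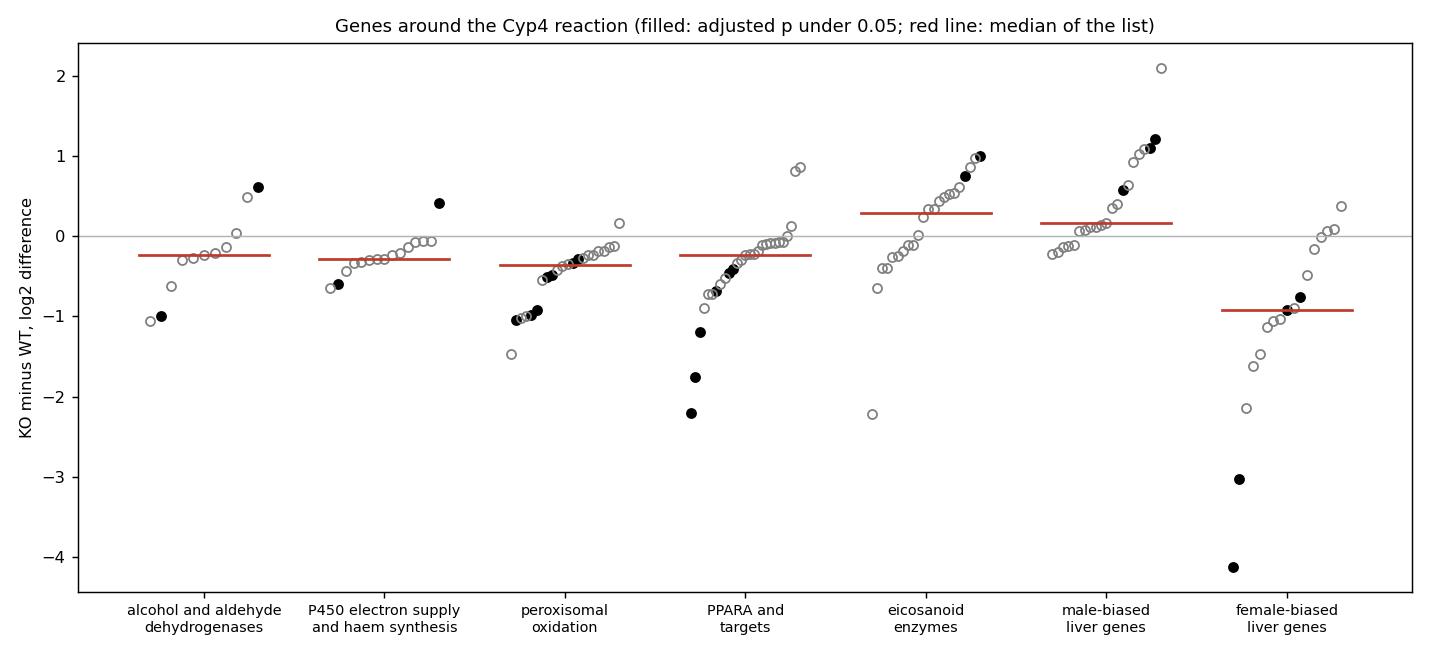
KO minus WT log2 difference of each tested gene in 7 lists around the Cyp4 reaction, filled where the adjusted p is under 0.05, with the median of each list as a red line. Medians run from -0.92 for the female-biased genes to 0.29 for the eicosanoid enzymes, and the 7 filled genes of peroxisomal oxidation and the 6 of PPARA and its targets all lie below 0.

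Markers of the cells a liver sample holds were measured beside the members. Hepatocyte markers gave 0 calls of 10 genes (2 at an unadjusted p under 0.05), with summed linear signal relative to the 75th percentile of 1630 to 2020 in KO and 1660 to 1940 in WT. Endothelial markers gave 0 calls of 12 (7 at an unadjusted p under 0.05), yet their sums did not overlap, at 41.6 to 61.7 in KO and 28.1 to 37.2 in WT. Differences of these 12 genes were positive for 11 and negative for 1 (median 0.32). Of 12 Kupffer cell markers Cd163 was called higher and 2 had an unadjusted p under 0.05 (sums of 59.7 to 147 in KO and 65.5 to 138 in WT). Of 4 adipocyte markers Cfd was called lower, 3 had an unadjusted p under 0.05 and all 4 had negative differences. The sums were 4.59 to 7.26 in KO and 9.48 to 34.2 in WT. These sums include Cfd, whose relative log2 signal was 1.48 to 4.82 on WT arrays, so their separation adds nothing to that call. Lipe (-0.40), Slc2a4 (-1.82) and Fabp4 (-0.25) were not called, and Adipoq, Lep and Adrb3 were not above background on any array. Stellate (12 genes), bile duct (6), lymphocyte (9) and neutrophil (3) markers gave 0 calls, and 4, 1, 0 and 0 of them had an unadjusted p under 0.05. Kidney, another organ rich in Cyp4 enzymes, was represented by 3 tested genes, of which 2 had an unadjusted p under 0.05. Kap was called higher and was above background on 5 KO and 2 WT arrays. The other tested kidney genes were not called, with differences of -0.49 ± 0.20 for Aqp2 and 0.05 ± 0.45 for Slc22a6 (limma adjusted p = 0.18 and 0.96). Slc34a1 was not above background on any array. Cd163 lost its call without any 1 array but KO1, and Kap without WT1. The part of cell composition in the Cyp4 differences was not tested.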

How the data were processed

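Total RNA of 10 liver samples was hybridised to Agilent arrays, 1 sample per array and 1 colour (Cy3). Per the file headers, the authors obtained the deposited intensity values with Feature Extraction 9.5.1.1 (the submitters' processing notes name 9.5), which subtracts background within an array. No normalisation between arrays had been applied, and the value table of the series repeats these intensities. The 75th percentile of signal was 950.3 to 1344, and 51.0% to 62.4% of probes were well above background per array. The number of arrays limits the precision.

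Intensities were log2-transformed without a pseudocount, each array's 75th percentile over non-control probes was subtracted, outlier-flagged spots were set to missing and spots of a probe were averaged. A probe had to be flagged well above background on 4 or more arrays of 1 group (of 5), which 23266 of 41174 probes were. These were fitted with limma 3.58.1 in R 4.3.3, genotype as the only term, with Benjamini-Hochberg adjustment over all of them. All tests were two-sided. For a probe above background in WT only, the fold is a bound against the lowest signal above background on each KO array. Gene names were updated through a RefSeq table of a later assembly, used for names only, which matched 22951 probes by accession, 6953 by symbol or gene number and 3109 by an older symbol, and 8161 kept the name in the files. The fit was checked on simulated data.

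The members and lists were chosen with earlier results of these data known. Named genes are all Cyp4 probes, Nr2c2, Ppara, up to 4 called genes with the smallest p in each direction per pathway list (or the 1 with the smallest p), up to 2 per marker list, and the 3 genes most like each member. Some genes that this rule takes are not reported here. Same-numbered KO and WT samples had correlations of -0.20 to 0.05, so the numbers were not taken as pairs. Alternatives were other scalings and filters, slide and replicate number as blocks, array weights, a robust fit and leaving out each array.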

Additional observations from a re-analysis of the deposited data

Results flagged for a closer look

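Of the 32 groups of 5 arrays checked, 5 held 1 array far from the other 4, where the nominal rate of the rule is about 1 in 20 for a single group. The groups share the same 10 arrays and some probes vary together (r = 0.96 for Cyp4f15 and Cyp4f18 with group means taken off). They are therefore not independent, and their count cannot be judged by that rate. KO2 was the far array for 4 genes, with relative log2 signals of 5.22 for Cyp4f14, 3.50 for Cyp4f15, 3.74 for Cyp4v3 and 1.70 for Cyp4f18, each the lowest of its group. The fifth was WT5 for Cyp4b1, at 1.53, the lowest of the WT arrays. No explanation was weighed.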

How the results depend on the processing

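Member probes called lower numbered 3 in the fit reported, 4 with array weights (Cyp4a14 being added, adjusted p = 0.014), 2 with quantile normalisation alone or after normexp (A_52_P340136 being lost, adjusted p = 0.062 and 0.060), 1 without scaling, 1 with 1 probe per gene (2 Cyp4a10 probes then being left out), 0 without the filter on dim probes, 0 with slide as a fixed block, 0 within slide 2 and 0 with replicate number as a block. At an unadjusted p under 0.05 by limma, the last 4 settings gave 4, 2, 2 and 5 lower member probes. Leaving out 1 array gave 0 to 4, the fourth being Cyp4a14 without KO2, and no alternative called a member probe higher. Over all probes, 694 were called lower and 480 higher. Counts of lower calls were 196 without scaling, 195 without the filter, 28 with slide as a fixed block, 1061 with slide as a random block, 0 within slide 2, 139 with the replicate block and 220 to 890 with 1 array left out. Counts of higher calls were 206 with median scaling, 93 without the filter, 17 with slide as a fixed block, 803 with slide as a random block, 2 within slide 2, 82 with the replicate block and 127 to 690 with 1 array left out. Within slide 2, 970 probes had an unadjusted p under 0.05 by limma. The replicate block left the member differences unchanged and gave the Cyp4a10 probes adjusted p-values of 0.080, 0.087 and 0.070, and among other calls it ended those of Cyp4a31 A_51_P254895 (0.082), Cyp4a31 A_52_P218449 (0.089) and Adh4 A_51_P189442 (0.056).

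The median difference of all probes was 0.12 without scaling, against 0.01 in the fit reported. Differences that changed sign were uncalled and, apart from that of Cyp4f39 in the slide settings, small. With slide as a fixed block and within slide 2 they were -0.09 for Cyp4f13, -0.03 for Cyp4f14 and -0.39 for Cyp4f39, the last against 0.18 in the fit reported. With median scaling they were -0.05 for Cyp4f14 and -0.04 for Cyp4f16. With 1 array left out, Cyp4f14 ran from -0.03 (without WT1) to 0.22, with 0 without KO3 and -0.02 without KO5. Cyp4f16 ran from -0.02 (without KO2) to 0.14, Cyp4f18 from -0.21 to 0.06 (without KO2), Cyp4v3 from -0.26 to 0.07 (without KO2) and Cyp4f39 from -0.01 (without KO4) to 0.33. The causes were not tested.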
